A study of Mus musculus with 23 samples.

Results

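Livers of mice given 1 of the 2 higher furan doses, 4 or 8 mg/kg, were compared with livers of mice given 1 of the 2 lower doses, 1 or 2 mg/kg, with no control animals in the comparison. Arrays were chosen by their labelled dose alone: 9 arrays formed the higher side (4 at 4 mg/kg and 5 at 8 mg/kg) and 9 the lower side (4 at 1 mg/kg and 5 at 2 mg/kg), 18 of the 23 arrays in all. The animals were female mice of the B6C3F1 hybrid, common in carcinogenicity tests, bought at 5 to 6 weeks of age and given furan in corn oil by gavage for 21 days. Livers were taken 4 h after the last dose, and the 5 control animals received corn oil only. Each array carried liver RNA of 1 sample, which the series text calls a biological replicate, in Cy5 and a universal mouse reference RNA in Cy3, so a value here is a log2 ratio of liver to reference RNA. No dyes were swapped, and no allele or second agent was used in any group.

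Furan is a volatile compound that forms when food is heated. Liver Cyp2e1 oxidises it to a reactive dialdehyde, which glutathione traps and which otherwise binds protein and DNA bases. Damage to DNA stabilises the transcription factor p53, which switches on genes that stop the cell cycle, repair DNA or start cell death. Electrophiles also release the factor NRF2, which raises conjugating and antioxidant enzymes.

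A total of 19830 genes were tested, 12901 under a gene symbol and 6929 under another transcript name. The tissue label fitted its markers: all 12 hepatocyte markers measured were well above background on all 18 arrays, with median log2 ratios from 4.76 for Hnf4a to 8.96 for Trf. In Cy5, an array had 22011 to 30120 probes clear of background and 0 saturated ones. Pancreatic digestive enzymes, over 5 of 17 listed genes that were measured, stood apart on 4 arrays (2 mg/kg replicates 1 and 5, 4 mg/kg replicate 1 and 8 mg/kg replicate 5), with mean centred log2 values of 1.82 to 2.93. Neutrophil markers, 5 of 12 measured, were high on 2 mg/kg replicate 4, at 2.1. Arrays lay on 5 slides, and every slide held both sides.

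At the higher doses, the rises included 9 genes of the p53 response, a few detoxifying enzymes and the fetal liver protein Afp. Among the genes called, as defined below, the largest rise was that of Gm10639, a predicted gene. The falls were smaller and were led by the recombination gene Rad51b. With limma over the 18 arrays and a Benjamini-Hochberg adjusted p under 0.05 (called, below), 56 genes rose, which is 0.282% of the genes tested, and 22 fell, which is 0.111%. The rises ran from 0.305 to 2.29 on the log2 scale with a median of 0.663, and the falls had a median of -0.434. At least 1.5-fold changes made up 34 of the rises and 5 of the falls. Of the called genes, 48 rises and 18 falls carried a symbol.

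These calls lay close to the threshold. The smallest adjusted p was 0.0266, 37 of the 78 called genes lay between 0.04 and 0.05, and at an unadjusted p under 0.05 there were 2259 genes, 1114 higher and 1145 lower. The fit had the side as its only term, so its spread and standard errors include the differences between the doses pooled on a side. Leaving out 1 array at a time moved the limma count between 0 and 142: it was 0 without 1 mg/kg replicate 2 or 3 or 8 mg/kg replicate 2, 4 or 5 (1912 to 2013 genes at an unadjusted p under 0.05), 4 without 8 mg/kg replicate 1, and 108, 142, 129 and 141 without 2 mg/kg replicate 4 and 4 mg/kg replicates 1, 3 and 4. It was 16 and 13 without 1 mg/kg replicates 1 and 4, 19, 6, 35 and 51 without 2 mg/kg replicates 1, 2, 3 and 5, and 10 without 8 mg/kg replicate 3. Without the 4 arrays rich in pancreatic enzymes 6 genes rose and 0 fell, with 2474 at an unadjusted p under 0.05. All 78 kept their sign in each of those fits. This is description, since most of the arrays that chose the genes remain in each fit. With the slide as a block 96 genes rose and 43 fell, and 61 of the 78 remained called. With each dose as its own term and the means of dose means compared, 134 rose and 60 fell. The lowest limma adjusted p was then 1.83e-08. Centring the arrays on their median without loess gave 123 rises and 17 falls, a share of rises of 87.9%, and the authors' deposited values gave 27 and 6, or 81.8%, against 71.8% here.

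**Figure D1:**
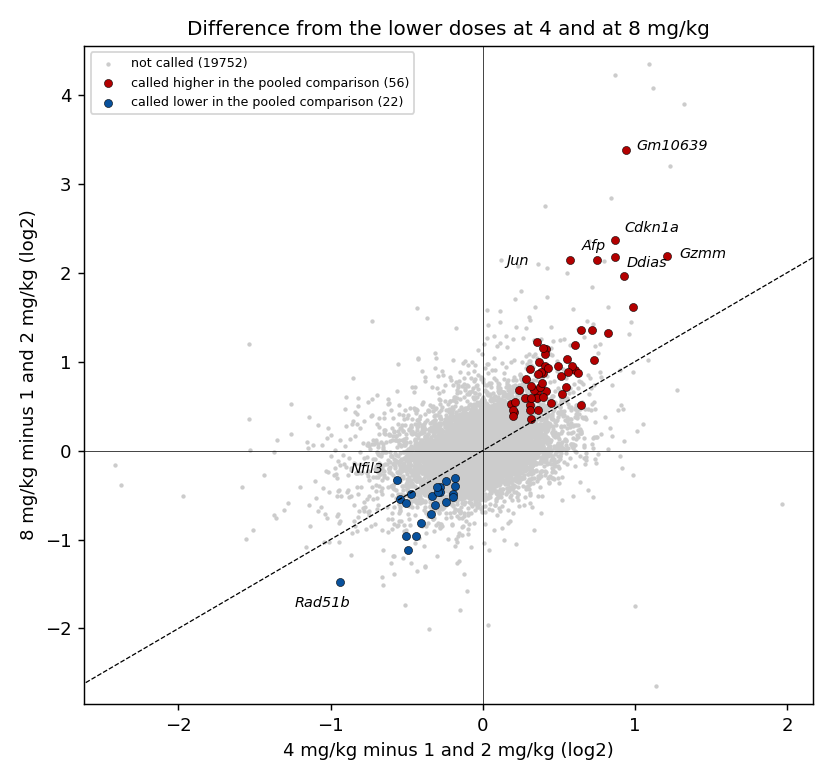
Each point is 1 of 19830 genes: the x axis is the mean at 4 mg/kg minus the mean of the 9 lower-dose arrays, the y axis the same for 8 mg/kg, both in log2, and the dashed line marks equal differences. The 56 rises in red and 22 falls in blue lie in the same quadrants at both doses, and most lie farther from 0 at 8 mg/kg; both axes share the lower-dose arrays, and both enter the pooled comparison that chose the coloured genes.

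The called genes were ordered by dose. For 56 of 56 rises the 4 mg/kg mean exceeded both lower-dose means, and for 55 the 8 mg/kg mean was higher still. For 22 of 22 falls the 4 mg/kg mean was below both lower-dose means, and for 21 the 8 mg/kg mean was lower again. The exception among the falls was Nfil3. The median rise was 0.409 at 4 mg/kg and 0.875 at 8 mg/kg against the lower doses, and the median fall was -0.324 and -0.514. These are parts of the comparison that chose the genes and are given as description.

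Taken alone, 8 mg/kg carried far more calls than 4 mg/kg. Against the same 9 lower-dose arrays, 408 genes rose (2.06%) and 286 fell (1.44%) at 8 mg/kg, and all 78 genes of the pooled comparison were among them. That overlap is description, since the same 8 mg/kg and lower-dose arrays took part in choosing the 78. At 4 mg/kg 3 genes were called (0.0151%): Cdkn1a rose, and Nfil3 and a transcript without a symbol fell, with 743 genes at an unadjusted p under 0.05. Nfil3 and Cdkn1a were the 2 pooled calls that passed at 4 mg/kg. The direct limma test of 8 against 4 mg/kg called 18 genes (0.0908%), all higher at 8 mg/kg, and 5 of them were pooled calls (Cdkn1a, Phlda3, Jun, Cxcl10 and Gm10639). Between 2 and 1 mg/kg limma called 0 genes, with 1402 at an unadjusted p under 0.05. A pooled fit without the 8 mg/kg arrays called 0 genes, with 699 at an unadjusted p under 0.05, and one without the 4 mg/kg arrays called 531.

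Among the gene lists, those of p53 targets held the most calls. Of 34 measured members of 2 p53 lists, 9 rose and 0 fell in the pooled comparison, 26.5% against 0.282% of all genes, and the median difference of the 34 was 0.313 against -0.0137 over all genes. Among the 9, Ddias was not well above background on every lower-dose array. The same 9 were lost as calls without the pancreas-rich arrays, and also without slide 3, where the medians of the 2 lists went from 0.305 to 0.299 and from 0.527 to 0.439. The 250 bases before a start of 4 genes of these lists, in which 9 members rose and 0 fell, are shown. Each of the 4 holds the half-site bound by p53, so they do not show how common it is. Bax and Polk, called members that also hold it, are not shown, and Mdm2 is a member that was not called. Capitals mark each match to this half-site, a palindrome of purines, a core and pyrimidines. Aen has another start, whose window (chr7:78895677-78895926) holds no half-site. The sequences are from RefSeq, build GRCm38.p6, 5′ to 3′ on the strand of the gene.
Cdkn1a, chr17:29090729-29090978, plus strand: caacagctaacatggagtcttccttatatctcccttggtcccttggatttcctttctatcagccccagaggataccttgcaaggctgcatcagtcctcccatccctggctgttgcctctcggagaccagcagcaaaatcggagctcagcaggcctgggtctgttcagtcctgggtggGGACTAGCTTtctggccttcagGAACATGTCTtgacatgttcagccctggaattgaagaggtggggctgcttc
Aen, chr7:78895808-78896057, plus strand: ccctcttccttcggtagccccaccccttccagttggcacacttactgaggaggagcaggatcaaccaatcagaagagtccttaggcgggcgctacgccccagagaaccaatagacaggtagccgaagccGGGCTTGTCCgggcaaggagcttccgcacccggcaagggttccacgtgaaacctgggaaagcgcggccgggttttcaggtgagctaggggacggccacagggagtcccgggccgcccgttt
Ccng1, chr11:40755287-40755536, minus strand: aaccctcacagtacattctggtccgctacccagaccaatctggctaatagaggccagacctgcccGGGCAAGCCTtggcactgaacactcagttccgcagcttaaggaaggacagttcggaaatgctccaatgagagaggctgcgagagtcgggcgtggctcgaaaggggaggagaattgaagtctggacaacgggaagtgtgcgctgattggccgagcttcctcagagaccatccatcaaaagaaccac
Mdm2, chr10:117710759-117711008, minus strand: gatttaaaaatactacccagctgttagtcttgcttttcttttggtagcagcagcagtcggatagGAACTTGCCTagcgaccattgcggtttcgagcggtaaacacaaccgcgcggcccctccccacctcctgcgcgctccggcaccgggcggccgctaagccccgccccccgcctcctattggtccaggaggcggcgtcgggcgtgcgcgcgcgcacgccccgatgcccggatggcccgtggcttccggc

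The half-site was added to the search after the results were seen. It occurred in the 250 bases before at least 1 start of 11 of the 27 p53-list genes that had a promoter sequence (40.7%). It also occurred before 765 of 10289 genes tested (7.44%), and in 7.13% of all 32851 promoters. Of called genes with a promoter, 6 of 41 rises (14.6%) and 1 of 16 falls (6.25%) held it. The lists were drawn up as p53 targets, so their share does not test the rises. Among the named genes, 43 of 53 had a promoter, and 6 held the half-site: the 4 above, Bax and Polk. The other motifs searched on both strands were TTCNNGAA (heat shock element core, 7.17% of all promoters), TGANTCA (AP-1, 6.75%), TGACNNNGC (antioxidant response element core, 10.2%), TGACGTCA (cAMP response element, 1.55%), TGATGNAA (ATF4 composite element, 3.45%) and CCAAT (33.8%). In the Cdkn1a promoter the second half-site shares bases with a heat shock core, and in AP-1 and antioxidant motifs letters can overlap too. A match describes the letters in this window and not a site in use.

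Cdkn1a encodes p21, the inhibitor of cyclin-dependent kinases through which p53 halts the cell cycle. The 9 lower-dose arrays read from -4.08 to -3.30 with a median of -3.76, and the 9 higher-dose arrays from -2.97 to -1.05 with a median of -1.43. The sides did not overlap, and the 4 arrays at 4 mg/kg (-2.68, -2.69, -2.97 and -2.96) lay between the lower doses and the 5 at 8 mg/kg (-1.05, -1.41, -1.43, -1.37 and -1.39). The pooled difference was 1.70 ± 0.26 (standard error, log2; limma adjusted p = 0.0266), a 3.25-fold rise. At 4 mg/kg the difference from the lower doses was 0.87 ± 0.13 (adjusted p = 0.0294), at 8 mg/kg 2.36 ± 0.12 (adjusted p = 4.4e-09), and 8 exceeded 4 mg/kg by 1.49 ± 0.14 (adjusted p = 0.000135). The controls, outside the comparison, read -4.73 to -3.52.

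Other p53 targets of cell cycle arrest and repair followed the same order with smaller steps. Ccng1, cyclin G1, read -1.78 to -1.01 at the lower and -1.09 to -0.25 at the higher doses, overlapping at the edges, and rose by 0.66 ± 0.12 (limma adjusted p = 0.0334). Polk, a DNA polymerase that copies past damaged bases, had medians of -1.41 and -0.55 and rose by 0.70 ± 0.15 (adjusted p = 0.0474). Zmat3, an RNA-binding zinc finger protein, rose by 0.82 ± 0.17 (adjusted p = 0.0496), from a lower-dose median of -1.89 to -1.02. Trp53inp1, a p53-inducible nuclear protein, rose by 0.58 ± 0.12, with an adjusted p just under 0.05 that became 0.0595 with the slide as a block. Mdm2, the ubiquitin ligase that degrades p53, was not called: its 2 sides overlapped (-1.24 to -0.77 and -1.18 to -0.31), with a difference of 0.43 ± 0.10 (adjusted p = 0.0734), while 8 mg/kg alone differed from the lower doses by 0.63 ± 0.09 (adjusted p = 0.00044). In this list of 21 measured genes 5 rose, 0 fell, and 16 differences were above 0. Btg2, Plk2 and Sesn2 had differences of 0.31, 0.62 and 0.49 without a call, and Ddb2, which finds ultraviolet damage, and Sesn1 had -0.17 and -0.15.

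Of 13 measured p53 targets tied to cell death, 4 rose and 0 fell. Phlda3, which restrains Akt signalling, had no overlap between the sides: -3.16 to -2.70 at the lower and -2.64 to -1.55 at the higher doses. Its pooled difference was 0.82 ± 0.14 (limma adjusted p = 0.0283), with 0.41 ± 0.09 at 4 mg/kg and 1.14 ± 0.09 at 8 mg/kg. Bax, which permeabilises mitochondria, rose by 0.53 ± 0.10 (adjusted p = 0.0334), from a lower-dose median of -1.13 to -0.59. Aen, an apoptosis-enhancing nuclease, rose by 0.72 ± 0.13 (adjusted p = 0.0334). The 4 arrays of Aen at 4 mg/kg averaged 0.08 ± 0.16 (SD, n = 4), against -0.14 ± 0.07 (n = 5) at 2 mg/kg and 0.71 ± 0.15 (n = 5) at 8 mg/kg. Ddias, a DNA damage-induced suppressor of apoptosis, rose by 1.60 ± 0.31 (adjusted p = 0.0334). Ddias was not well above background on every lower-dose array, so this difference is in part a description against dim values. Its lower-dose values ran from -2.85 to -2.04 on 8 arrays, and 2 mg/kg replicate 5 lay apart at -0.74.

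Members of the same list that were not called split into a group above 0 and a group near or below it. Gdf15, a secreted stress cytokine, had a difference of 0.97 ± 0.22 (limma adjusted p = 0.0676), and Tnfrsf10b, the death receptor for TRAIL, 0.97 ± 0.23 (adjusted p = 0.0734). Tnfrsf10b differed between 8 and 4 mg/kg by 1.19 ± 0.17 (adjusted p = 0.0078), with 4 mg/kg at -3.11 ± 0.27 (SD, n = 4) close to 2 mg/kg at -3.33 ± 0.28 (n = 5). Tnfrsf12a, the TWEAK receptor, had 0.89 (adjusted p = 0.073). In contrast Bbc3, which encodes the death effector PUMA, had -0.40, Fas -0.21 and Perp -0.16, none of them called. Over the 2 lists 16 members rose and 1, Perp, fell at 8 mg/kg alone, against 2.06% and 1.44% of all genes.

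**Figure D2:**
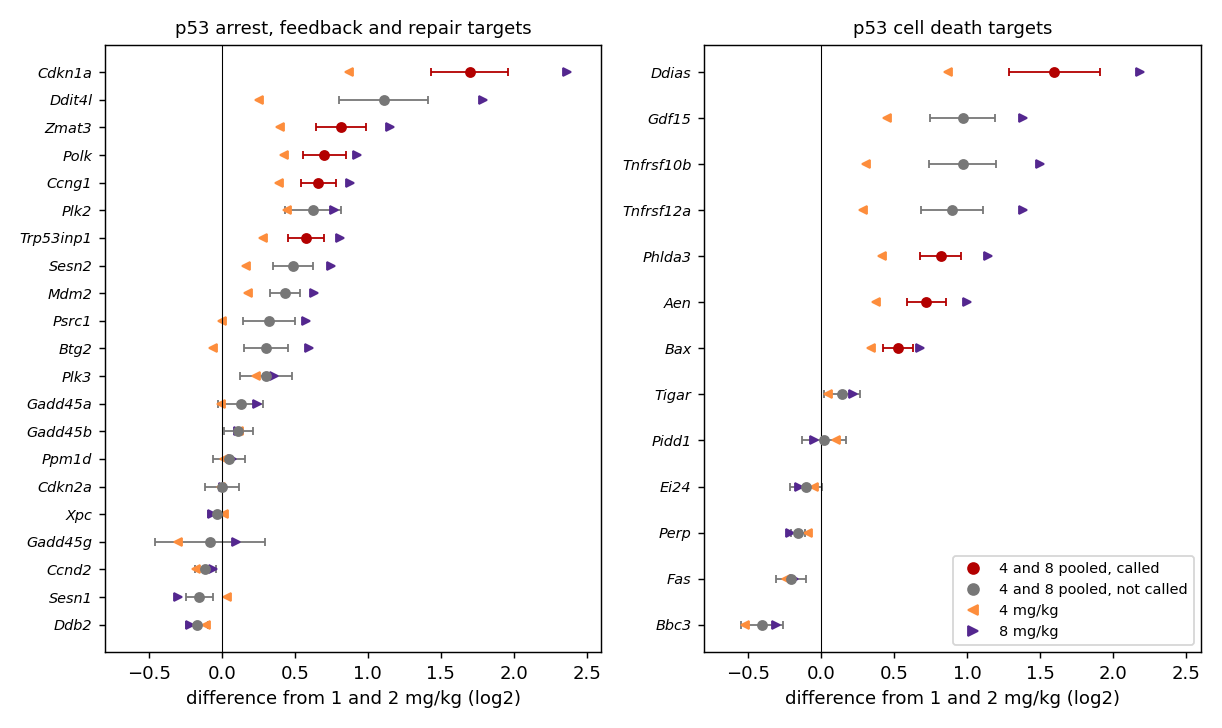
Differences from the 9 lower-dose arrays in log2 for the 21 and 13 measured p53 targets: circles are the pooled difference with its standard error (red where called), left triangles 4 mg/kg and right triangles 8 mg/kg. The 9 called genes have both triangles right of 0, with 8 mg/kg farther out. Pooled differences lie right of 0 for 25 of the 34 genes, and Bbc3, Fas, Perp, Ddb2 and Sesn1 are among those left of 0.

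Detoxifying enzymes rose in part. Ephx1, microsomal epoxide hydrolase, read 1.95 to 2.53 at the lower and 2.47 to 3.36 at the higher doses, and only the edges met. It rose by 0.71 ± 0.12 (limma adjusted p = 0.0283). Nqo1, a quinone reductase and a standard NRF2 target, rose by 0.66 ± 0.14, from a lower-dose median of -1.04 to -0.44, and Gstm1, a glutathione transferase, by 0.65 ± 0.14, from 3.72 to 4.43. Both had an adjusted p just under 0.05. Of 25 measured NRF2 targets 2 rose and 0 fell, against 0.282% and 0.111% of all genes. Of the 25, 21 differences were above 0, with a median of 0.0995. Gclc, the catalytic subunit of glutathione synthesis, had 0.55 (adjusted p = 0.12), Srxn1 0.45 and Txnrd1 0.27 without a call, whereas Srxn1 and Txnrd1 were both higher at 8 than at 4 mg/kg, by 0.70 ± 0.12 (adjusted p = 0.0204) and 0.54 ± 0.10 (adjusted p = 0.0387). Without the 8 mg/kg arrays 13 of the 25 NRF2 differences were above 0.

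The widest spread was in the alpha class of transferases. Gsta1 ran from -1.76 to 1.85 at the lower and from 0.78 to 5.09 at the higher doses, a difference of 2.77 ± 0.64 that was not called (limma adjusted p = 0.0676) but passed with the slide as a block (2.93, adjusted p = 0.048). The 5 arrays at 8 mg/kg (4.29, 3.59, 5.09, 4.74 and 3.91) all exceeded the other 13, of which 4 mg/kg replicate 1 was highest at 2.38. Gm10639, called with 2.29 ± 0.48, is a predicted gene, and near-identical copies may share signal on such probes. Gsta3 and Gsta4 had differences of 0.03 and -0.01, and of 22 transferases measured 1 rose, against 0.282% of all genes. Cyp2e1, the enzyme that activates furan, had 6.66 to 8.03 at the lower and 6.60 to 7.73 at the higher doses and a difference of -0.25 ± 0.19 (adjusted p = 0.69). Its 3 highest values, 7.91, 8.03 and 7.73, were all on slide 3, where hepatocyte markers were also higher, at 0.716 to 0.987. Hmox1, heme oxygenase 1, had 0.51 ± 0.27 (adjusted p = 0.504): its 4 mg/kg mean of -1.74 was at the level of 1 mg/kg (-1.72), and 8 mg/kg was at -0.61 ± 0.63 (SD, n = 5).

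Among immediate early genes Jun, a subunit of the AP-1 factor, was the member called. It read -4.41 to -3.19 at the lower and -3.59 to -1.51 at the higher doses. The difference was 1.45 ± 0.30 (limma adjusted p = 0.0474, and 0.0536 with the slide as a block), and 8 exceeded 4 mg/kg by 1.57 ± 0.23 (adjusted p = 0.0078). Atf3, a stress-induced repressor, had 1.15 ± 0.26 (adjusted p = 0.0595) and also differed between 8 and 4 mg/kg, by 1.31 ± 0.21 (adjusted p = 0.0118). Myc, a growth regulator, varied within each side (SD 0.81 and 0.81, n = 9 each), and its difference of 1.04 ± 0.36 was not called (adjusted p = 0.232). Of 18 members measured 1 rose and 0 fell, against 0.282% and 0.111% of all genes. Of these members 13 differences were above 0, and the median was 0.3. At an unadjusted limma p under 0.05 there were 8 higher and 2 lower, against 1114 and 1145 of all 19830 genes. At 8 mg/kg alone 5 rose and 0 fell against the lower doses, where 2.06% of all genes rose and 1.44% fell. Fosb, Fosl1 and Zfp36 were below 0, at -0.36, -0.33 and -0.61.

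Genes for tubulin, chaperones and ribosome assembly held few calls. Of 16 tubulin and tubulin-folding genes measured 1 rose and 0 fell, 11 differences were above 0, and the median was 0.0493. Tubb4b, a beta tubulin, rose by 0.78 ± 0.14 (limma adjusted p = 0.0334), from a lower-dose median of -1.01 to -0.11. Tubb2a, another beta tubulin, had 1.05 ± 0.30 without a call (adjusted p = 0.128), and 1 mg/kg replicate 1, at 1.88, lay just under the lowest 8 mg/kg value of 1.95. Tsr1, which matures the small ribosomal subunit, rose by 0.46 ± 0.10, with an adjusted p just under 0.05 and 0.062 with the slide as a block. In the ribosome biogenesis list 1 of 30 genes was called, 26 differences were above 0, the median was 0.236, and 20 had an unadjusted p under 0.05. Of 20 heat shock chaperones 0 were called by limma, 9 had an unadjusted p under 0.05, 19 differences were above 0, and the median was 0.186. Hsp90aa1, a cytosolic chaperone, had 0.34 ± 0.13 (adjusted p = 0.29). Over all genes 9036 of 19830 differences were above 0. Rises made up 0.282% and falls 0.111% of all genes, and 1114 higher and 1145 lower had an unadjusted limma p under 0.05.

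Cell cycle genes showed no call in the pooled comparison. Of 32 measured members 0 passed limma, and 28 differences were above 0 with a median of 0.18. At an unadjusted p under 0.05 there were 6 higher and 1 lower, against 1114 and 1145 of all 19830 genes. The median difference was -0.00247 at 4 mg/kg and 0.327 at 8 mg/kg. At 8 mg/kg alone 3 rose and 1 fell against the lower doses, where 2.06% of all genes rose and 1.44% fell. Mki67, a marker of dividing cells, read -5.74 to -4.08 at the lower and -5.60 to -4.56 at the higher doses, with a difference of 0.17 ± 0.20 (adjusted p = 0.842), and its highest value was the neutrophil-rich array, 2 mg/kg replicate 4. Ccnd1, cyclin D1, had 0.42 ± 0.14 (adjusted p = 0.214).

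Afp, a fetal protein of the albumin family that marks growing or transformed liver, separated the sides without overlap. Lower-dose arrays read -2.10 to -1.58 with a median of -1.65, and higher-dose arrays -1.52 to 1.28 with a median of -0.11. At 4 mg/kg the 4 arrays were 0.08, -1.05, -1.48 and -1.52: 2 of them lay just above the lower doses and replicate 1, a pancreas-rich array, reached the 8 mg/kg range. The pooled difference was 1.52 ± 0.31 (limma adjusted p = 0.0417). It was the 1 call among 10 measured oncofetal and tumour genes, with 6 differences above 0 and a median of 0.064. Of all genes 0.282% rose and 0.111% fell. Golm1 had 0.33 and Spp1 0.05, and Lcn2, a secreted iron-carrier protein, had the lowest value at -0.71, none of them called.

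Gzmm, granzyme M, a protease of natural killer cells and other lymphocytes, was dim at the lower doses. Values ran from -2.69 to -1.25 at the lower and from -0.88 to 1.08 at the higher doses, with no overlap, and the signal was well above background on 1 of 4 arrays at 1 mg/kg, 3 of 5 at 2 mg/kg and 9 of 9 higher-dose arrays. The gene entered the test through the groups where it is high, so its fitted pooled difference, 1.76 ± 0.25, is a description against values that were in part not well above background. The 8 measured T and NK cell markers of a list of 13 held no call: 0 passed limma, 0 had an unadjusted p under 0.05, and Gzma, Nkg7 and Cd3e had differences of -0.08, -0.04 and -0.07. Their summed level ranged from -0.235 to 0.445 at the lower and -0.238 to 0.274 at the higher doses, and 5 of the 13, among them Ncr1 and Gzmb, were below the filter. In bulk tissue, fewer cells of a type and less RNA per cell cannot be told apart. Cxcl10, a chemokine that attracts T cells, rose by 0.84 ± 0.18 (adjusted p just under 0.05, 0.0568 with the slide as a block), and 8 exceeded 4 mg/kg by 0.87 ± 0.16 (adjusted p = 0.0387). It was the 1 rise among 13 measured chemokines and cytokines, against 0.282% of all genes, with Ccl2 at 0.27 and Il1b at -0.04.

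The remaining named rises were enzymes and transporters. Ces2b, a liver carboxylesterase, rose by 1.04 ± 0.20 (limma adjusted p = 0.0334), from a median of 6.01 to 7.13, and the 5 arrays at 8 mg/kg lay within 7.13 to 7.54. Slc23a3, of the ascorbate and nucleobase transporter family, rose by 1.07 ± 0.20 (adjusted p = 0.0334). Car15, a carbonic anhydrase, rose by 0.82 ± 0.14 and Noxred1, an oxidoreductase, by 1.10 ± 0.19 (adjusted p = 0.0283 for each). Abcc12, an ABC transporter, was well above background on 2, 1, 2 and 4 arrays at 1, 2, 4 and 8 mg/kg. It entered the test through 8 mg/kg alone, and its fitted difference of 1.33 ± 0.28 is likewise a description.

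**Figure D3:**
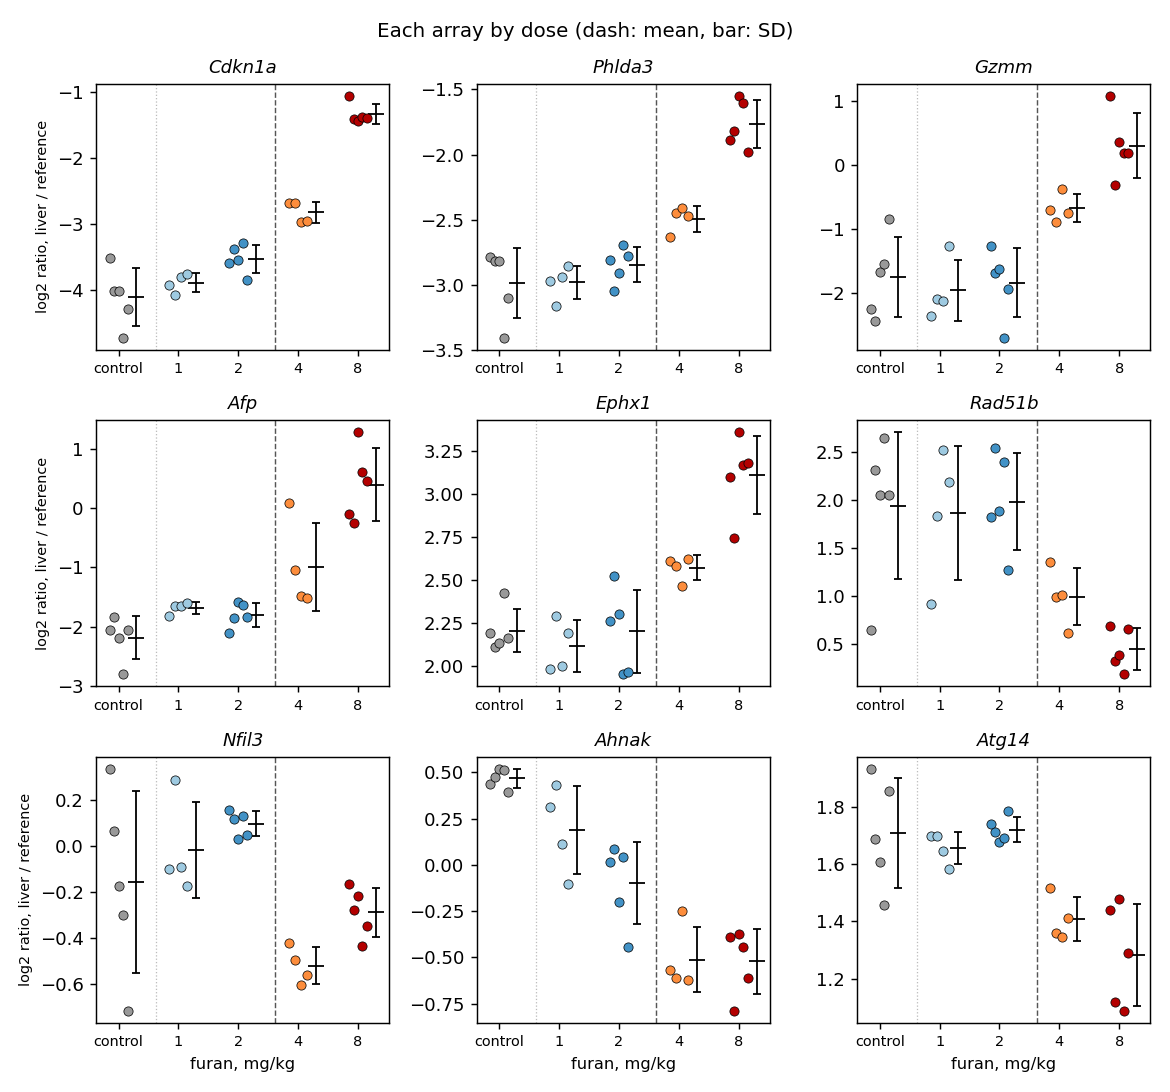
Log2 ratio of liver to reference RNA on each array for 9 genes by furan dose, with the mean and SD of each group beside the points; the dashed line separates lower from higher doses and the dotted line sets off the controls, which are not in the comparison. Cdkn1a, Phlda3, Gzmm, Afp and Atg14 show no overlap across the dashed line, and Nfil3 is lower at 4 than at 8 mg/kg.

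Rad51b, a gene of DNA repair by homologous recombination, had the largest named fall. It read 0.91 to 2.54 at the lower doses with a median of 1.89 and 0.19 to 1.35 at the higher doses with a median of 0.66. The overlap came from 1 mg/kg replicate 1 at 0.91 and 2 mg/kg replicate 5 at 1.27 against 4 mg/kg values of 1.35, 0.99, 1.01 and 0.62, and both of those lower-dose arrays were on slide 3. It fell by 1.24 (± 0.21, limma adjusted p = 0.0283), and 1 control, at 0.65, lay at the 8 mg/kg level. Of 24 DNA repair genes measured 0 were called by limma, with 2 at an unadjusted p under 0.05, both higher.

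Nfil3, a bZIP repressor that takes part in the circadian clock, was the 1 fall in which 4 mg/kg went farther than 8 mg/kg. Arrays at 4 mg/kg read -0.42, -0.49, -0.60 and -0.56, those at 8 mg/kg -0.16, -0.28, -0.22, -0.43 and -0.35, and those at the lower doses -0.17 to 0.29. The differences were -0.57 ± 0.08 at 4 mg/kg (limma adjusted p = 0.0294), -0.33 ± 0.08 at 8 mg/kg (adjusted p = 0.0219) and -0.44 ± 0.07 pooled (adjusted p = 0.0283), and the 2 higher doses differed by 0.23 ± 0.09 (adjusted p = 0.515). Controls spread from -0.72 to 0.34, across the values of every dose. The other 16 measured clock genes were not called, with Dbp at -0.02, Nr1d1 at -0.07 and Arntl at 0.75. Crygn, a lens crystallin gene, and Lpin1, a phosphatidate phosphatase, were also among the 5 smallest p-values at 4 mg/kg, with -1.59 ± 0.30 (adjusted p = 0.213) and 0.75 ± 0.15 (adjusted p = 0.452). Both were nearer to the lower doses at 8 mg/kg, with -0.41 ± 0.28 and 0.15 ± 0.14, and neither was a pooled call.

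Atg14, which starts autophagosome formation, and Txndc15, a thioredoxin-fold protein, had small but tight falls with no overlap. Atg14 read 1.58 to 1.79 at the lower and 1.09 to 1.52 at the higher doses (difference -0.35 ± 0.06, limma adjusted p = 0.0283). Txndc15 read 1.87 to 1.98 and 1.53 to 1.82 (difference -0.25 ± 0.05, adjusted p = 0.0334). In all 11 genes had 9 and 9 values without overlap, 6 higher (0.0303% of genes) and 5 lower (0.0252%). Besides Cdkn1a, Phlda3, Gzmm and Afp, the higher ones were Zfp84 and, not called, the alkyl-DNA repair gene Mgmt (0.20 ± 0.05, adjusted p = 0.115). The lower ones included Lbp, the lipopolysaccharide-binding protein of the acute phase (-0.43 ± 0.10, adjusted p = 0.0793), and Pced1b (-0.37 ± 0.08, adjusted p = 0.0586), neither called. Zfp84, Mgmt, Lbp and Pced1b were named after their values were seen.

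Fibin, a secreted protein, fell by 0.84 (± 0.18, adjusted p just under 0.05, and 0.0535 with the slide as a block), and Nrp2, a co-receptor for semaphorins and VEGF, by 0.48 (± 0.09, limma adjusted p = 0.0334). B3glct, which adds glucose to fucose on thrombospondin repeats, fell by 0.48 (± 0.08, adjusted p = 0.0283) and by nearly the same amount at 4 mg/kg (0.47) and 8 mg/kg (0.49). Ahnak, a giant scaffold protein, fell by 0.55 (± 0.10, adjusted p = 0.0334), and its group means stepped down from 0.47 in controls to 0.19, -0.10, -0.51 and -0.52 over the 4 doses. The other 3 kept Ahnak probes had differences of -0.08 to 0.14, so this fall rests on 1 probe. Apol7b, of the apolipoprotein L family, fell by 0.63 (± 0.13, adjusted p = 0.0366) and Smim1, a small membrane protein, by 0.55 (± 0.10, adjusted p = 0.0334). Phyhd1, Lhpp and Fam214a fell by 0.43, 0.39 and 0.39, the first with an adjusted p of 0.0316, the others just under 0.05.

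H2-K1, a class I antigen-presenting molecule, fell by 0.30 (± 0.06, limma adjusted p = 0.0334) from a lower-dose median of 3.04 to 2.72. It belongs to a list of interferon-responsive and immunoproteasome genes in which 23 of 24 differences were below 0 and the exception was Cxcl10. The median was -0.159, 8 members had an unadjusted p under 0.05 on the lower side, and 1 fell and 1 rose. Of all 19830 genes 1145 were lower at an unadjusted limma p under 0.05, 0.111% fell and 0.282% rose. B2m had -0.21, Psmb8 -0.28, Psmb10 -0.24, Tapbp -0.23 and Irf1 -0.26, none of them called. Of 15 sinusoidal endothelial markers measured of 15, limma called 0, 4 had an unadjusted p under 0.05 and 12 differences were below 0 (median -0.123): their summed level ran from -0.0881 to 0.361 with a median of 0.0377 at the lower doses and from -0.376 to 0.324 with a median of -0.16 at the higher. Kupffer cell markers (16 of 18 measured) had medians of -0.0868 and -0.0693. Their part in these results was not tested.

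All 78 called genes had the same sign on 5 of 5 slides, against 17.6% of all genes tested, as description, since the slides hold the arrays that chose the genes. For Cdkn1a the within-slide differences were 1.70, 1.65, 2.46, 1.36 and 1.53, and for Rad51b -1.18, -1.51, -0.71, -1.89 and -1.04, on slides 1 to 5. Slide 3 gave the largest value for Cdkn1a, and its higher side held 1 array, at 8 mg/kg. Without slide 3 limma called 1 gene, with 2303 at an unadjusted p under 0.05, and all 78 kept their sign.

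**Figure D4:**
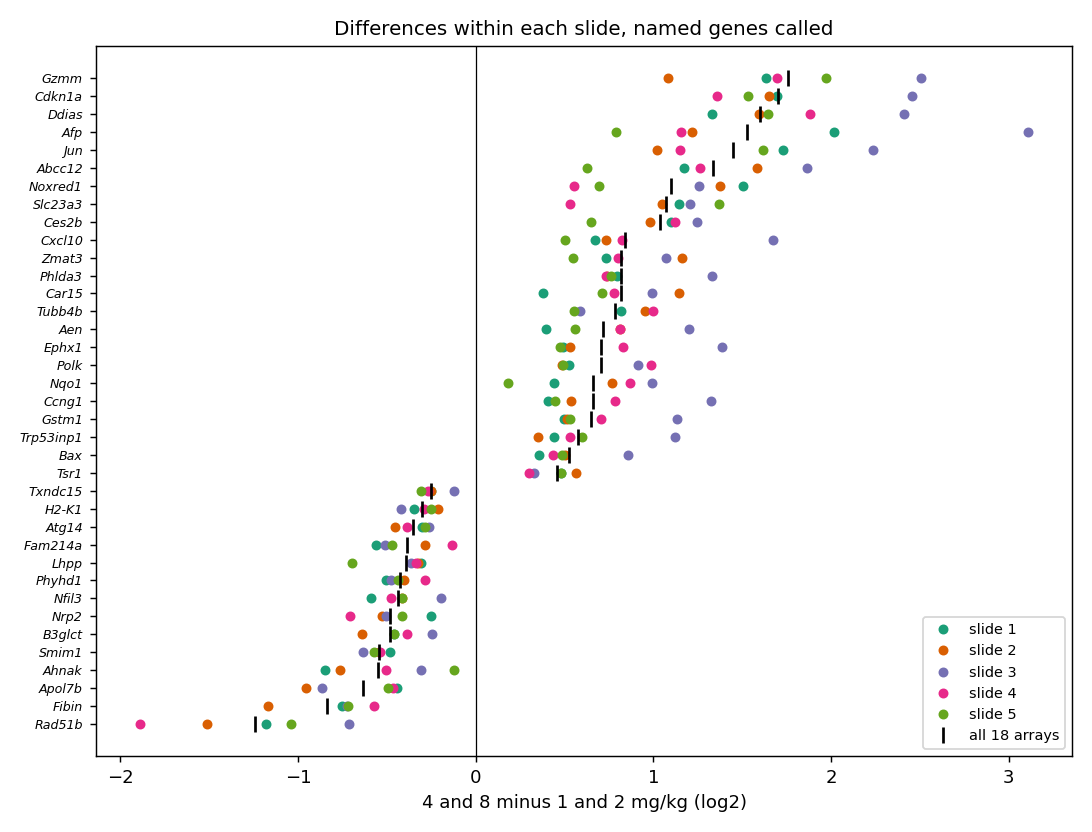
For 37 named genes that were called, coloured points give the mean of the higher-dose arrays minus the mean of the lower-dose arrays within each of 5 slides, in log2, and the black bar the difference over all 18 arrays. All 185 within-slide values drawn lie on the side of 0 of their gene; slides differ in how many 4 and 8 mg/kg arrays they hold.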

How the data were processed

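The members, gene lists and tests were chosen with earlier results of these data known. Per the file headers, the authors' spot intensities were made with Agilent Feature Extraction 10.7.3.1, which subtracted background from the processed signals and normalised their dyes. The median signal intensities, per the file headers, are raw. The deposited value table holds 1 linear Cy5 to Cy3 ratio per probe (column medians 0.974 to 0.987); on the log2 scale its correlation per array with loess-normalised median signals was 0.995 to 0.996, and its normalization is not given in the sources used here. The remaining deposited columns are 0 or 1 marks for other properties of a spot, per the file headers. Coordinates of the array design were not used.

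Values here are log2 processed Cy5 over Cy3, loess-normalised within each array (span 0.3, 4 iterations; control and marked spots at weight 0, then dropped). Replicate spots were averaged. A probe was kept if well above background in Cy5 on at least 4 arrays of a dose group (25474 of 55681 probes). Systematic names matched RefSeq symbols of GRCm38.p6, used for names, for 26413 probes; a gene was its brightest probe and needed 3 values per dose group. Of 16 other kept probes of named genes, 15 had the same sign.

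The test of the 2 sides was that of limma 3.58.1 (R 4.3.3; linear model and moderated variance, two-sided, Benjamini-Hochberg over all 19830 genes, threshold 0.05), with 16 residual and 2.45 prior degrees of freedom and a median residual SD of 0.235. The doses were fitted as 3 groups (lower, 4, 8) for 4 and 8 mg/kg. The number of arrays limits the precision. The code was tested on simulated data. Named genes were the 12 largest rises and falls with a symbol and signal on all 9 brighter arrays, up to 5 called members per list, a set of anchor genes, the 6 widest gaps between sides and the 5 smallest p-values at 4 mg/kg. Summed marker levels are means of log2 values centred on the array set. Alternatives covered background, normalization, filters, probes, blocks and left-out arrays. Sequences and motif positions are from RefSeq, build GRCm38.p6. 1 named fall is not reported here.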

Additional observations from a re-analysis of the deposited data

Results flagged for a closer look

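In 106 sets of 9 values, 1 side of 1 named gene each, 8 had an array farther from the rest than Dixon's gap test at 95% allows; about 1 in 20 such sets would be marked by chance. Array 2 mg/kg replicate 4, which also had the highest neutrophil markers (2.1), stood apart in 4 of them: Mdm2 at -0.77 (next -1.02), Hmox1 at -0.62 (next -1.59), Mki67 at -4.08 (next -4.99) and Fam214a at 2.3 (next 2.64). Without that array 62 genes rose and 46 fell. For Ddias the high lower-dose array was 2 mg/kg replicate 5 at -0.74 (next -2.04), and for Tubb2a it was 1 mg/kg replicate 1 at 1.88 (next 0.68). On the higher side, Smim1 was low on 8 mg/kg replicate 4 at -1.39 (next -1.01), and Cyp2e1 was high on 8 mg/kg replicate 3, on slide 3, at 7.73 (next 6.95).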

How the results depend on the processing

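Those of the 78 called genes that were tested kept their sign in each alternative. This is description, since each alternative draws on arrays that chose the genes. The number called moved, and limma called 0 genes in 10 settings at the same threshold (699 to 2757 at an unadjusted p under 0.05). Rises and falls numbered 35 and 19 with normexp, 20 and 9 on median signals without background correction, 27 and 6 with the deposited values, 123 and 17 with median centring, 0 and 0 with no filter on dim probes (37163 genes tested), 43 and 14 with marked spots kept, 96 and 43 with the slide as a fixed block and 180 and 93 as a random one. They were 85 and 43 with all 23 arrays, 6 and 0 without the pancreas-rich arrays, 62 and 46 without the neutrophil-rich array, 134 and 60 for the mean of dose means, 0 and 0 at an adjusted p under 0.01, and 34 and 5 at 1.5-fold or more. Without the 8, 2 or 1 mg/kg arrays they were 0 and 0, and without the 4 mg/kg arrays 336 and 195. Without slide 3, an alternative chosen after seeing the data, they were 0 and 1. Leaving out 1 array each gave 0 to 102 rises and 0 to 48 falls; Cdkn1a passed in 13 of the 18 fits.

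For 4 mg/kg against the lower doses (3 called) the count was 0 on uncorrected median signals, with deposited values, with a fixed slide block, with all 23 arrays, without pancreas-rich arrays, without slide 3 and at 0.01, 1 with no filter or without the neutrophil-rich array, and 0 to 2 without single arrays. The 18 settings with 0 had 696 to 1272 genes at an unadjusted p under 0.05. For 8 mg/kg against the lower doses (694) it was 423 with normexp, 393 on uncorrected median signals, 403 with deposited values, 371 with no filter, 1253 and 1383 with a fixed and a random slide block, 458 without pancreas-rich arrays, 239 at 0.01, 237 at 1.5-fold and 406 to 940 without single arrays. For 8 against 4 mg/kg (18) it was 33 and 62 with the slide blocks, 34 with all 23 arrays, 28 without the neutrophil-rich array, 7 at 0.01 and 5 to 28 without single arrays. For 2 against 1 mg/kg limma called 0 in each setting (888 to 2614 at an unadjusted p under 0.05). Genes without overlap (11) numbered 22 with median centring, 87, 25 and 46 without the pancreas-rich arrays, the neutrophil-rich array and slide 3, 42, 430, 265 and 52 without the 8, 4, 2 and 1 mg/kg arrays, and 11 to 29 without single arrays. Without the 8 mg/kg arrays the differences of Hmox1, Mki67 and Fgf21 turned to -0.12, -0.04 and -0.43. Where not set by fewer arrays or genes, the cause was not tested.

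With a replicate block limma called 0 rises, 0 falls and 0 genes at 4 mg/kg against the lower doses (2330 pooled genes at an unadjusted p under 0.05). Same-numbered samples of different groups had correlations of -0.246 to 0.403 (median 0.0577, 11 of 25 over 0.1), against 15 of 96 over 0.1 for different numbers. For same-numbered pairs the median was 0.00222 on different slides and 0.268 on the same slide. For pairs with different numbers it was -0.0793 and 0.203. Higher correlations went with the slide, so the numbers were not taken to pair the samples. The main fit had no slide term.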

Other observations

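Secreted liver proteins and amino acid enzymes leaned lower at the higher doses, but this lean moved with slide 3. Of 28 acute phase genes measured, 27 differences were below 0 with a median of -0.208, and limma called 0, with 5 at an unadjusted p under 0.05. The median was -0.321 at 4 mg/kg and -0.0938 at 8 mg/kg against the lower doses. Without slide 3, where hepatocyte markers were higher on all 3 arrays compared, it was -0.0464, with 18 of 28 below 0. Amino acid breakdown genes had a median of -0.124, and 0.0107 without slide 3. The interferon and immunoproteasome list, in comparison, had -0.159 and -0.194, the heat shock list 0.186 and 0.176, and the ribosome biogenesis list 0.236 and 0.203.

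The 18 genes higher at 8 than at 4 mg/kg included Dppa5a, a gene of pluripotent cells (3.36 ± 0.44, limma adjusted p = 0.00659), Ugdh, which makes UDP-glucuronate for conjugation (0.86 ± 0.13, adjusted p = 0.0078), and Ddit4l, an inhibitor of mTOR signalling (1.54 ± 0.25, adjusted p = 0.0134). None of these 3 was a pooled call, and they were named after their values were seen. For 45 of the 56 pooled rises and 20 of the 22 falls, the mean of the 5 control arrays lay within the range of the lower-dose arrays.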
